A study of Mus musculus with 18 samples.

Results

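The genes of the 26S proteasome were examined in whole mouse retina after light damage, with and without inhibition of galectin-3. Members were all genes whose symbol was Psm followed by a letter from a to g and a number, without Psmb8 and Psmb9, which were not analysed here. Of 23420 gene symbols in the count tables, 48 matched this pattern, 2 were left out by the rule, 2 had a mean under 10 reads per mouse and 44 were kept. The 44 genes comprised 41 constitutive genes and a set-apart group of 3 genes that immune cytokines can induce, Psmb10, Psme1 and Psme2. The members differed by function as follows: 7 alpha and 7 beta subunits of the 20S core, 6 ATPases and 11 non-ATPase subunits of the 19S cap, 3 activators or inhibitors, and 7 assembly chaperones.

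RNA was sequenced from retinas of 9 wild-type (wt) BALB/cJ mice, an albino, light-sensitive strain used here as young adults of both sexes, in 3 groups of 3. Naïve mice had no light exposure and no treatment. Vehicle-treated mice were dark adapted, exposed to 15000 lux of white light for 1 h, and given daily intraperitoneal DMSO from the day before the light. TD139-treated mice had the same exposure and received 15 mg/kg of TD139, a small-molecule inhibitor of galectin-3, dissolved in DMSO. Retinas of both light-exposed groups were taken 4 days after light. Since naïve mice had neither light nor DMSO, these factors cannot be told apart in comparisons with naïve mice.

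The proteasome is the main protease of the cytosol and nucleus for proteins tagged with ubiquitin. In the barrel-shaped 20S core, alpha rings gate the entry and beta rings hold the catalytic sites. The 19S cap recognizes ubiquitin, removes it, and uses a ring of ATPases to unfold the substrate and feed it into the core. Under interferon, inducible catalytic subunits such as Psmb10 replace their constitutive counterparts in newly made cores (immunoproteasomes), and Psme1 and Psme2 form PA28, a ring that opens the core without ubiquitin and favours peptides for MHC class I. In photoreceptors, which make and renew large amounts of membrane protein, the ubiquitin-proteasome system handles misfolded and damaged proteins.

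Between 26171887 and 30201517 reads per mouse lay on genes. Reads that the counting assigned to no feature made up 21.3 to 22.8% of the reads of TD139-treated mice, 16.5 to 19.4% of vehicle-treated and 19.1 to 19.9% of naïve mice. Markers of rods, cones, bipolar, amacrine and ganglion cells and Müller glia were present in every mouse. The 10 microglia or macrophage markers summed to between 21.3 and 23.4 CPM (reads on a gene relative to the reads on all genes of the library after that total was scaled by its TMM factor, edgeR's correction for library composition) in naïve, between 94.6 and 162 CPM in vehicle-treated and between 17.0 and 61.4 CPM in TD139-treated mice. TD139-treated mouse 1, with 61.4 CPM, stood apart from the other TD139-treated mice, at 18.6 and 17.0 CPM.

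The sequences around the start sites of the 3 inducible genes and of Psmb5 and Psmb6, the constitutive beta subunits with the lowest and highest level, are shown. Each runs from 130 bases before to 20 bases after the RefSeq start of its first window, on GRCm38.p6, in the direction of transcription. Capitals mark matches to TGACNNNGC, the antioxidant response element read by the NFE2L1 and NFE2L2 proteins, or to the interferon-stimulated response element read by interferon regulatory factors (GAAA, any 2 bases, GAAA), on either strand.
Psmb10, chr8:105938373-105938522, minus strand: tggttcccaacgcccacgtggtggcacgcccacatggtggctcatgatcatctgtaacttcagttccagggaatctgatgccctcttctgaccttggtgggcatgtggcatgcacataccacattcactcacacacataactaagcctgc
Psme1, chr14:55578364-55578513, plus strand: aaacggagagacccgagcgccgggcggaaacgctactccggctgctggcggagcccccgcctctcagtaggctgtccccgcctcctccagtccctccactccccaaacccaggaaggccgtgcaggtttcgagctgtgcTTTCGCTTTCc
Psme2, chr14:55591082-55591231, minus strand: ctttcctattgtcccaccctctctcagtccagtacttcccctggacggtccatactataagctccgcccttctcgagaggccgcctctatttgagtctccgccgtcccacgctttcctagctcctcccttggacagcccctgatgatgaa
Psmb5, chr14:54617976-54618125, minus strand: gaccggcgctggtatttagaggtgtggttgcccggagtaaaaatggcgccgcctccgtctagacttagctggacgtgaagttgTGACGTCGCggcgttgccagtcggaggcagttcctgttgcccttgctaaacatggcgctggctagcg
Psmb6, chr11:70525227-70525376, plus strand: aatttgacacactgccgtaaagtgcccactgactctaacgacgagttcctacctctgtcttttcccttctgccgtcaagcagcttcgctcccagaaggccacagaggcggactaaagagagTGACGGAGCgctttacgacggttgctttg

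Among these, Psme1 held an interferon-stimulated response element on the minus strand, just after the start, and Psmb5 and Psmb6 each held an antioxidant response element before it. In the RefSeq windows of 250 bases before to 50 bases after each start, 37 of the 44 genes had a sequence, in 40 windows. The antioxidant response element lay in 6 of 36 windows of constitutive genes (16.7%) and in 12.4% of all 32851 windows. The interferon-stimulated response element lay in 4 of the 36 (11.1%), in 1 of 4 windows of the inducible genes and in 3.44% of all windows. CCAAT, the NF-Y box, lay in 12 of the 36 (33.3%, against 37.4% of all windows) and in no window of the inducible genes. Psmb1, Psmb2, Psmb7, Psmc3, Psmd3, Psmd7 and Psmg2 had no window.

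In naïve retina, levels of constitutive subunits per kilobase of transcript (RPKM) spanned more than an order of magnitude. The beta subunits had the widest range. Psmb6, the caspase-like catalytic subunit, was highest at 238 ± 34.6 RPKM (SD, n = 3) and Psmb5, the chymotrypsin-like catalytic subunit, lowest at 19.3 ± 2.61 RPKM. Psmb7, the trypsin-like subunit that Psmb10 replaces, stood at 106 ± 14.5 RPKM, next to Psmb2 at 97.3 ± 9.19 RPKM. The SD is between mice, and the difference between these neighbours within a mouse was not tested. Among the alpha subunits, Psma7 (130 ± 21 RPKM) and Psma6 (108 ± 15.8 RPKM) were highest, and Psma5 was lowest (27.8 ± 4.22 RPKM). The difference between Psma7 and Psma6 was not tested either.

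In the cap, the ATPases ran from Psmc5 at 159 ± 23.3 RPKM down to Psmc6 at 52.0 ± 5.02 RPKM. The non-ATPase subunits ran from Psmd4, a ubiquitin receptor, at 127 ± 6.48 RPKM down to Psmd11 at 22.8 ± 3.47 RPKM. The alternative activator Psme4 (PA200) had 12.6 ± 0.979 RPKM and the PA28 gamma activator Psme3 46.6 ± 1.79 RPKM. Assembly chaperones were low, from 11.8 ± 2.01 RPKM for Psmd10 to 31.3 ± 6.50 RPKM for Psmg2. Of the inducible genes, Psme1 had 74.2 ± 12.5, Psme2 42.2 ± 8.09 and Psmb10 11.4 ± 1.73 RPKM. The testis-type alpha subunit Psma8 had 0 to 5 reads and the thymus-type beta subunit Psmb11 1 to 10 reads in a mouse, which was too few to compare.

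**Figure D1:**
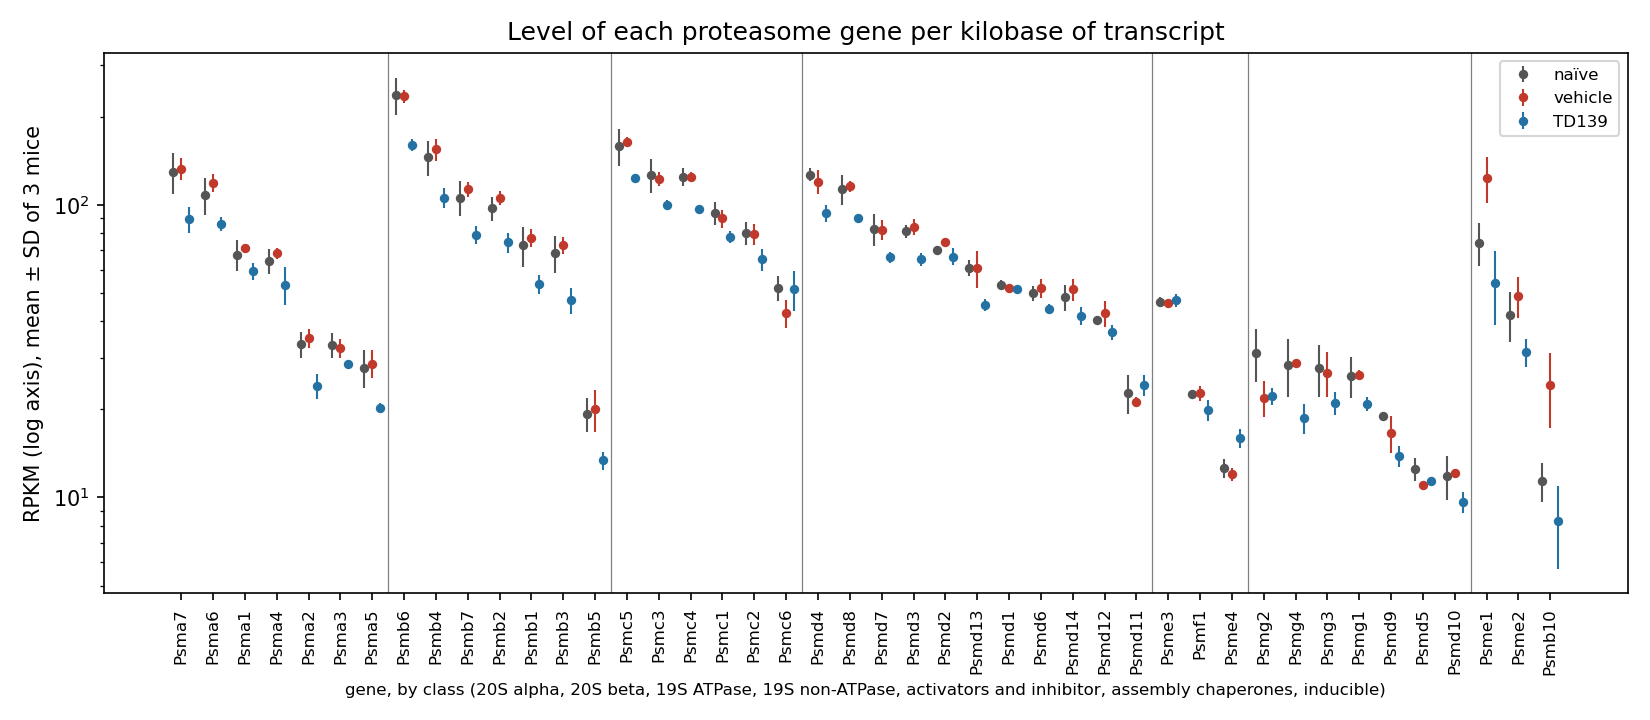
Level of each of the 44 proteasome genes in RPKM on a log axis, as mean ± SD of 3 mice per group, ordered by naïve level within each class. Psmb6 is the highest beta subunit and Psmb5 the lowest in every group, and Psmb10 is higher in vehicle-treated mice (24.2 RPKM) than in naïve (11.4 RPKM) or TD139-treated mice (8.31 RPKM).

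Vehicle-treated mice were first set against naïve mice, which asked what light damage with vehicle changed. Psmb10 rose, while none of the 41 constitutive genes changed by edgeR's quasi-likelihood test at an adjusted p under 0.05. Psmb10 had 16.8, 15.7 and 12.4 CPM in the naïve mice, 24.9, 28.4 and 42.0 CPM after vehicle and 14.7, 9.95 and 8.06 CPM after TD139. All vehicle-treated mice lay above all mice of the other groups, and mouse 3 was the highest of them. Its log2 fold change over naïve was 1.08 ± 0.25 (SE), with an edgeR adjusted p of 0.0296, where 4.91% of all 15196 genes tested rose. This call was lost in 5 of the 9 fits that each left out 1 mouse, namely when naïve mouse 1, 2 or 3 (adjusted p of 0.0685, 0.0950 and 0.0903) or vehicle-treated mouse 1 (0.0506) or 3 (0.0935) was left out, with log2 fold changes of 0.83 to 1.24 over the 9 fits. The call was also lost when the replicate number entered the edgeR fit as a block (1.10, adjusted p = 0.054).

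Psme1, the alpha subunit of PA28, had 61.7, 52.6 and 43.9 CPM in naïve, 73.9, 86.5 and 105 CPM after vehicle and 51.0, 32.6 and 31.8 CPM after TD139. The vehicle-treated mice again lay above all the others. The log2 difference between vehicle-treated and naïve mice was 0.75 ± 0.20, with an edgeR adjusted p of 0.0524, just short of the threshold, and it passed under 7 of 21 alternative analyses. Psme2, the beta subunit of PA28, had 43.0, 39.0 and 29.2 CPM in naïve and 35.6, 44.5 and 48.9 CPM in vehicle-treated mice, and these groups overlapped (log2 difference of 0.21 ± 0.16, adjusted p = 0.408).

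The 10 microglia or macrophage markers were each higher in every vehicle-treated mouse than in any naïve mouse, and 7 of them passed the edgeR test. None of these markers was at 0 in any mouse. Their part in the rise of Psmb10 was not tested, and in whole retina more cells of a type and more RNA per cell cannot be told apart. The 3 T lymphocyte markers summed to between 0.0371 and 0.235 CPM in every mouse. Summed rod markers were 66200 to 75100 CPM in naïve and 38300 to 53400 CPM in vehicle-treated mice, with 4 of 6 called lower. Of the 4 Müller glia markers, 2 were called higher, Slc1a3 (0.79, adjusted p = 0.0386) and Aqp4 (0.78, adjusted p = 0.0216), while the summed level of the list overlapped, at 3080 to 3850 CPM in naïve and 3820 to 4290 CPM in vehicle-treated mice. Summed retinal pigment epithelium markers were 62.8 to 136 CPM in naïve and 143 to 269 CPM in vehicle-treated mice, but none of the 3 tested was called, and Ttr (1.04, adjusted p = 0.187) and Pmel (-0.58, adjusted p = 0.767) had opposite signs. Summed amacrine cell markers did not overlap either, at 623 to 707 CPM in naïve and 724 to 861 CPM in vehicle-treated mice, with none of 3 called. The part of these lists in the values of the inducible genes was not tested.

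**Figure D2:**
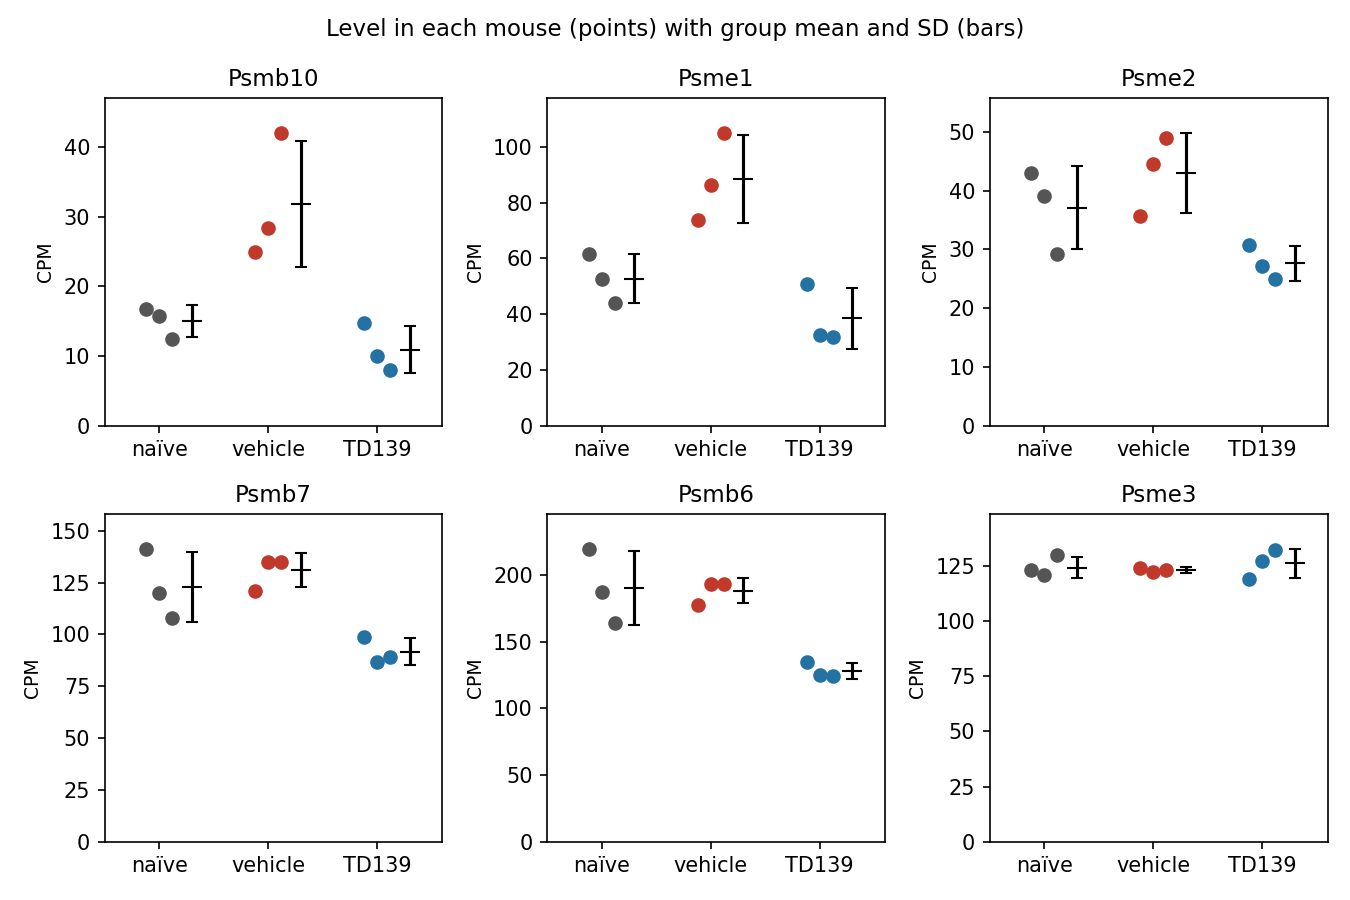
Level in CPM of the inducible genes Psmb10, Psme1 and Psme2 and of Psmb7, Psmb6 and Psme3 in each of the 9 mice (points), with the group mean ± SD (bars, n = 3). Vehicle-treated mice lie above all others for Psmb10 and Psme1, TD139-treated mice lie below all others for Psmb7 and Psmb6, and Psme3 is at 119 to 132 CPM in every mouse.

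For the constitutive genes, the log2 differences between vehicle-treated and naïve mice ran from -0.51 to 0.15 with a median of 0.03, against a median of -0.00 over all genes tested. The lowest adjusted p among the 41 was 0.0644, and 2 of the 41 had an unadjusted p under 0.05, against 27.6% of all genes tested. After adjustment, 4.91% of all genes tested rose and 2.89% fell. In DESeq2 and in limma, 1 constitutive gene was called lower, where these tools called 7.04% and 10.2% of all genes lower, and none was called higher. The gene at -0.51 was Psmg2, a chaperone of alpha ring assembly, with 45.2, 35.6 and 30.0 CPM in naïve and 22.0, 29.1 and 26.5 CPM in vehicle-treated mice. The other with an unadjusted p under 0.05 was the ATPase Psmc6 (-0.29 ± 0.13, adjusted p = 0.167). Vehicle-treated and naïve mice did not overlap in 4 genes, higher for the ubiquitin-handling scaffold Psmd2 and lower for Psmc6, Psmg2 and the ATPase chaperone Psmd9, where 16.7% and 16.6% of all genes tested did so in the respective directions.

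Summed over the 14 core subunits, the level was 1340 ± 174 CPM in naïve and 1400 ± 88.7 CPM in vehicle-treated mice (SD, n = 3). The 17 cap subunits summed to 2370 ± 168 and 2360 ± 100 CPM. Psmb6, the beta subunit with the most reads, had 219, 187 and 164 CPM in naïve and 177, 193 and 193 CPM in vehicle-treated mice. Psmb7 had 141, 120 and 108 CPM in naïve and 121, 135 and 135 CPM in vehicle-treated mice. For both of these genes, the vehicle-treated values lay inside the range of the naïve mice.

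The ratio of Psmb10 to Psmb7 per kilobase, a measure of the inducible over the constitutive trypsin-like subunit, was 0.105, 0.115 and 0.102 in naïve mice. It was 0.182, 0.186 and 0.275 in vehicle-treated mice, above every other mouse, and 0.131, 0.102 and 0.0799 in TD139-treated mice. The ratio of Psme1 to Psme2 per kilobase was 1.77, 1.67 and 1.86 in naïve mice, 2.56, 2.40 and 2.66 after vehicle and 2.05, 1.48 and 1.58 after TD139. Vehicle-treated mice thus held more Psme1 relative to its partner than any other mouse. Relative to Psme3, the PA28 gamma gene, Psme1 stood at 1.60 ± 0.311 in naïve mice, 2.70 ± 0.493 after vehicle and 1.16 ± 0.388 after TD139.

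**Figure D3:**
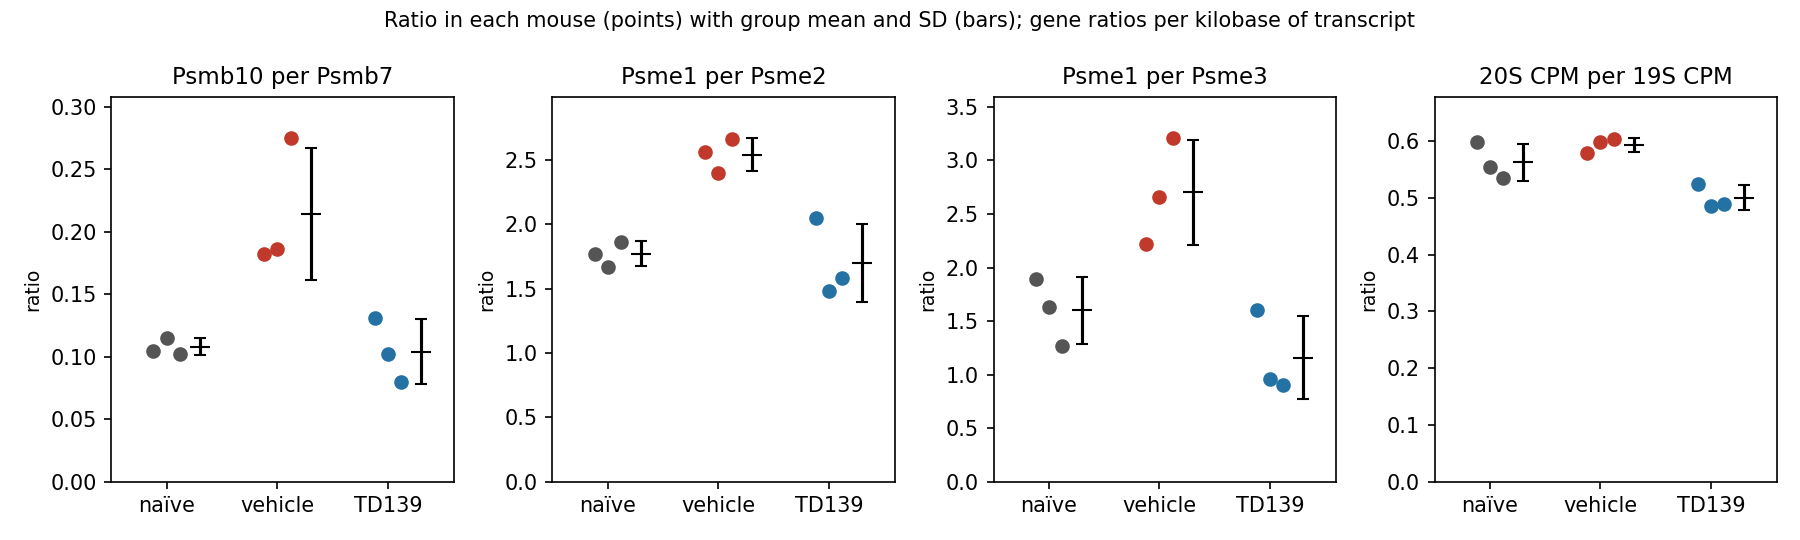
Ratios of Psmb10 to Psmb7, Psme1 to Psme2 and Psme1 to Psme3, each per kilobase of transcript, and of summed core (20S) to summed cap (19S) CPM, in each mouse (points) with the group mean ± SD (bars, n = 3). The gene ratios are highest in the 3 vehicle-treated mice, and the core to cap ratio is lowest in the 3 TD139-treated mice, at 0.486 to 0.525.

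TD139-treated mice were compared with vehicle-treated mice to see what inhibition of galectin-3 changed after light. All 3 inducible genes fell, and so did 22 of 41 constitutive genes, most of them core subunits, while 1 rose. Over the constitutive genes, log2 fold changes moved with transcript length and GC content, as set out below. Psmb10 fell by 1.54 ± 0.25 on the log2 scale (edgeR adjusted p = 0.00568) and Psme1 by 1.20 ± 0.21 (adjusted p = 0.00593), and both calls were kept in all 21 alternative analyses, with adjusted p of at most 0.0355. Psme2, with 30.8, 27.2 and 24.9 CPM in TD139-treated mice, fell by 0.64 ± 0.16 (adjusted p = 0.0141), a call that was lost when vehicle-treated mouse 3 (0.0588), TD139-treated mouse 2 (0.0602) or TD139-treated mouse 3 (0.0662) was dropped, and with the length and GC offset described below (-0.25, adjusted p = 0.128). Its highest TD139-treated mouse lay below its lowest vehicle-treated mouse, at 35.6 CPM, and 25.4% of all genes tested were separated in that way. Without TD139-treated mouse 1, the library with more microglia markers than the others of its group, the log2 fold changes were -1.82 for Psmb10, -1.46 for Psme1 and -0.73 for Psme2. Of the 10 microglia or macrophage markers, 8 fell in this comparison by the same test, and their part in the fall of the inducible genes was not tested.

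Of the constitutive genes, 22 of 41 (53.7%) fell, where 16.2% of all genes tested fell, and 1 of 41 rose, where 17.2% of all genes tested rose. Their median log2 fold change was -0.33, from -0.63 for Psmb3 to 0.42 for Psme4, against -0.02 over all genes tested. In 31 of 41 genes (75.6%) every TD139-treated mouse lay below every vehicle-treated mouse, against 25.4% of all genes tested. Reads assigned to no feature, given above, were also highest in TD139-treated mice. Cell type markers moved as well between these groups. Summed rod markers were 38300 to 53400 CPM after vehicle and 54600 to 68000 CPM after TD139, with 3 of 6 called higher. Summed retinal pigment epithelium markers were 143 to 269 and 61.1 to 104 CPM, with 2 of 3 tested called lower, and summed endothelial markers 29.7 to 35.3 and 21.5 to 23.9 CPM, with 1 of 3 called lower. Summed bipolar cell markers were 1120 to 1280 and 1380 to 1390 CPM, with 3 of 4 called higher and 1 lower. Summed cone markers were 902 to 1100 and 1120 to 1220 CPM, with none called, and summed ganglion cell markers 256 to 319 and 196 to 240 CPM, with 1 of 3 called lower. The summed levels of these 6 lists did not overlap between the groups, whereas those of amacrine cells and Müller glia did. The part of these markers and of the reads assigned to no feature in the fall of the constitutive genes was not tested. Leaving out 1 mouse at a time gave 8 to 24 constitutive genes that fell, with 13 when vehicle-treated mouse 3 was dropped, 8 when TD139-treated mouse 2 was dropped and 10 when TD139-treated mouse 3 was dropped. The shares of all genes called in these fits are not given.

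**Figure D4:**
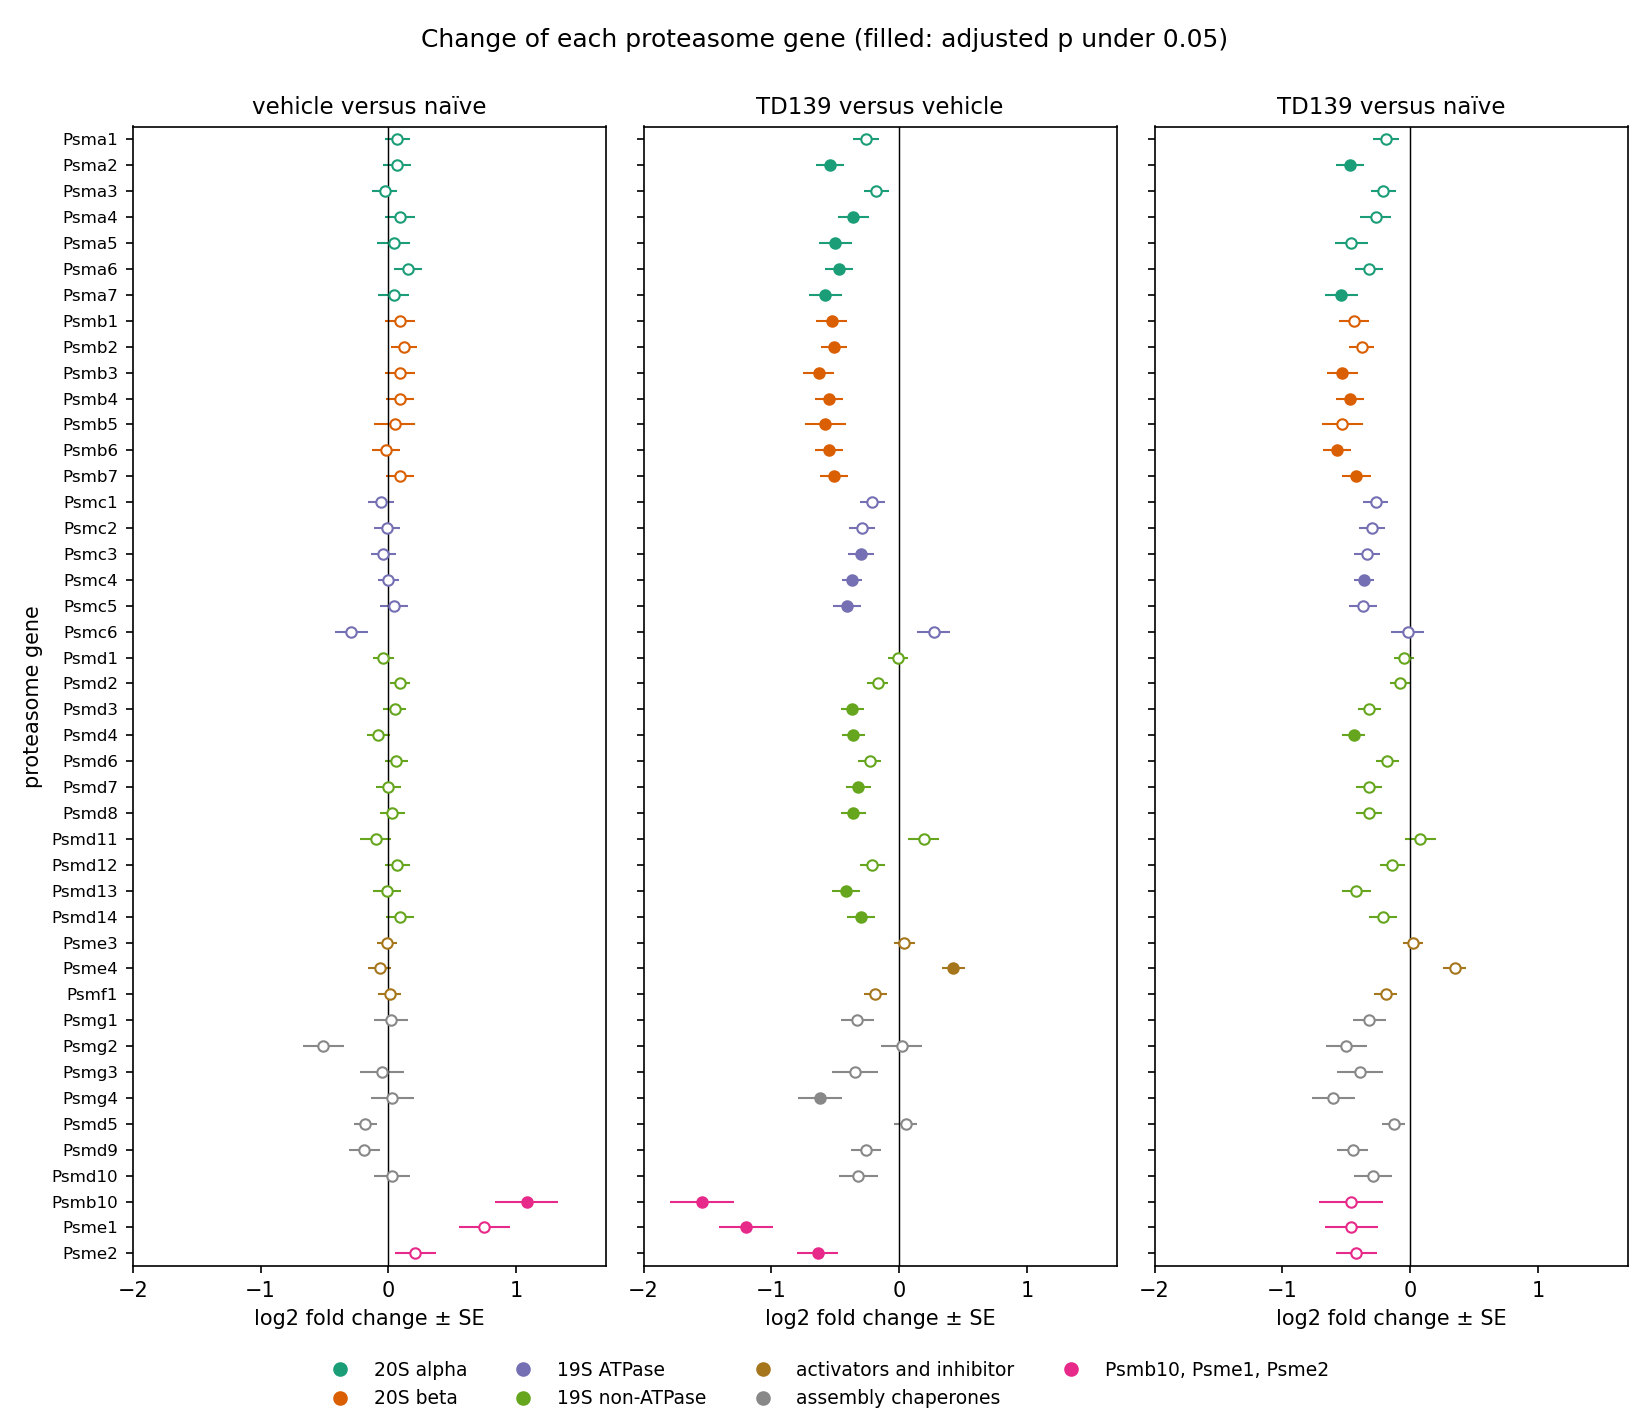
Log2 fold change ± SE of the 44 genes in each comparison, coloured by class, with filled points for an edgeR adjusted p under 0.05. The constitutive genes lie near 0 between vehicle-treated and naïve mice (median 0.03) and mostly below 0 between TD139-treated and vehicle-treated mice (median -0.33), and the inducible genes span 0.21 to 1.08 in the former and -1.54 to -0.64 in the latter.

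All 7 beta subunits fell, with a median of -0.55 and log2 fold changes from -0.63 to -0.51. Psmb6 stood at 135, 125 and 124 CPM in TD139-treated mice, below every other mouse (-0.55 ± 0.11, adjusted p = 0.0065). Psmb3, a structural beta subunit, had 51.5, 57.8 and 58.1 CPM after vehicle and 40.3, 34.9 and 33.2 CPM after TD139 (-0.63 ± 0.12, adjusted p = 0.0066). Psmb2, also structural, had 86.1, 90.8 and 96.3 CPM after vehicle and 69.2, 59.0 and 63.9 CPM after TD139 (-0.51 ± 0.10, adjusted p = 0.00674). Vehicle-treated and TD139-treated mice did not overlap in any beta subunit. Psmb7, the counterpart of Psmb10, stood at 98.9, 86.7 and 89.3 CPM in TD139-treated mice and fell by 0.51 ± 0.11 (adjusted p = 0.0081), where Psmb10 fell by 1.54, and the difference between these values was not tested.

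Of the 7 alpha subunits, 5 fell (Psma2, Psma4, Psma5, Psma6 and Psma7) and the class median was -0.47. Psma2 had 94.0, 104 and 108 CPM after vehicle and 77.9, 68.1 and 64.7 CPM after TD139 (-0.54 ± 0.11, adjusted p = 0.00693). Psma7, the alpha subunit with the most reads, had 126, 140 and 149 CPM after vehicle and 103, 86.7 and 87.5 CPM after TD139 (-0.58 ± 0.13, adjusted p = 0.00842). Psma6 had 101, 110 and 116 CPM after vehicle and 83.5, 78.2 and 74.6 CPM after TD139 (-0.47 ± 0.11, adjusted p = 0.0114). In each of these genes the TD139-treated mice lay below all vehicle-treated mice. The alpha subunits Psma1 (-0.26, adjusted p = 0.0713) and Psma3 (-0.18, adjusted p = 0.180) did not pass the test.

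In the cap, 3 of 6 ATPases fell, namely Psmc3, Psmc4 and Psmc5, with a class median of -0.29. Psmc4 had 160, 172 and 172 CPM after vehicle and 132, 125 and 133 CPM after TD139 (-0.37 ± 0.08, adjusted p = 0.0103), with no overlap. Psmc5, the ATPase with the most reads, had 207, 224 and 217 CPM after vehicle and 166, 157 and 165 CPM after TD139 (-0.41 ± 0.11, adjusted p = 0.015). Psmc3, for which the groups did not overlap either, had 197, 214 and 195 CPM after vehicle and 171, 165 and 157 CPM after TD139 (-0.30 ± 0.10, adjusted p = 0.0452). Psmc6 was the only ATPase with a value above 0 (0.27 ± 0.13, adjusted p = 0.117).

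Of the 11 non-ATPase subunits, 6 fell (Psmd3, Psmd4, Psmd7, Psmd8, Psmd13 and the deubiquitinase Psmd14), with a class median of -0.30. The lid subunit Psmd3 had 170, 179 and 193 CPM after vehicle and 147, 133 and 139 CPM after TD139 (-0.37 ± 0.09, adjusted p = 0.0109). The ubiquitin receptor Psmd4 had 146, 158 and 175 CPM after vehicle and 134, 120 and 120 CPM after TD139 (-0.36 ± 0.09, adjusted p = 0.0162). The lid subunit Psmd8 had 172, 186 and 173 CPM after vehicle and 141, 137 and 136 CPM after TD139 (-0.36 ± 0.10, adjusted p = 0.0171). None of these 3 genes overlapped between the groups. Psmd2, with the most reads of the class, had 225, 215 and 225 CPM after vehicle and 212, 189 and 190 CPM after TD139 and did not pass the test (-0.17 ± 0.08, adjusted p = 0.136). The base scaffold Psmd1 had a value of -0.01 ± 0.08 (adjusted p = 0.930).

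Outside the core and cap, Psme4, whose product caps the core without ATP, rose. It had 77.9, 73.4 and 81.7 CPM after vehicle and 96.8, 112 and 103 CPM after TD139, with no overlap (0.42 ± 0.09, adjusted p = 0.0098). Psme3, the nuclear PA28 gamma, had 124, 122 and 123 CPM after vehicle and 119, 127 and 132 CPM after TD139, which overlapped (0.04 ± 0.08, adjusted p = 0.745). Psmf1, an inhibitor of the core, had a value of -0.19 ± 0.09 (adjusted p = 0.124). Of the 7 assembly chaperones only Psmg4 fell by the edgeR test, from 14.4, 15.1 and 15.1 CPM after vehicle to 10.6, 8.42 and 9.88 CPM after TD139 (-0.62 ± 0.17, adjusted p = 0.0188). Psmd5, the ATPase chaperone with the most reads of its class, had 48.0, 49.1 and 47.8 CPM after vehicle and 48.6, 50.1 and 51.8 CPM after TD139 (0.05 ± 0.09, adjusted p = 0.671).

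Core and cap subunits were also compared by their sums, with no test. Summed core level per summed cap level was 0.599, 0.555 and 0.535 in naïve mice, 0.579, 0.598 and 0.603 after vehicle and 0.525, 0.486 and 0.489 after TD139. Every TD139-treated mouse lay below every other mouse. The summed core level in TD139-treated mice was 995 ± 69.0 CPM and the summed cap level 1990 ± 55.4 CPM. Activators and inhibitor summed to 260 ± 7.17 CPM after vehicle and 282 ± 8.08 CPM after TD139.

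Core subunits are encoded by short transcripts, with a median annotated length of 859 bases for beta and 1160 for alpha subunits, against 1580 for non-ATPase and 1610 for ATPase subunits of the cap and 2690 for all genes tested. Between TD139-treated and vehicle-treated mice, fold changes of all genes moved with this length. Over all 15068 genes with a length, Spearman's rho between length and log2 fold change was 0.46, and over the 41 constitutive genes 0.71. The points share the same 6 libraries and the genes are not independent replicates. In the decile of shortest transcripts, with a median of 798.5 bases, all genes had a median log2 fold change of -0.43, and in the decile of longest, with a median of 7075 bases, it was 0.44. Psmb6, at 798 bases, and Psme4, at 6491 bases, with -0.55 and 0.42, lay near these values. Between vehicle-treated and naïve mice, rho was -0.09 over all genes and -0.38 over the 41, and between TD139-treated and naïve mice 0.56 and 0.66. Log2 fold changes between TD139-treated and vehicle-treated mice also moved with GC content, with a rho of -0.36 over all genes and -0.44 over the 41.

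With length and GC content of each gene entered as an offset fitted for each mouse, 5 of 41 constitutive genes fell between vehicle-treated and TD139-treated mice (12.2%), where 9.98% of all genes tested fell in that fit, and none rose. The median was -0.13. The 5 were the alpha subunits Psma2 (-0.89, adjusted p = 0.0106) and Psma6 (-0.24, adjusted p = 0.0476) and the beta subunits Psmb1 (-0.48, adjusted p = 0.0133), Psmb4 (-0.19, adjusted p = 0.0499) and Psmb7 (-0.24, adjusted p = 0.0289), each tested by edgeR. Psmb6 was at -0.03 (adjusted p = 0.747) and Psmb5 at -0.02 (adjusted p = 0.905). Of the genes called without the offset, Psmc3 (0.05), Psmc4 (0.01), Psmd4 (0.05) and Psme4 (-0.10) turned sign with it and passed no test. Psmc6 (0.27 without and -0.06 with the offset), Psmg1 (-0.33 and 0.04), Psmg3 (-0.35 and 0.18) and Psmd5 (0.05 and -0.29), called in neither fit, also turned sign. No other gene of the 41 was called in this fit. Psma2, with a length of 2911 bases and a GC content of 39.4%, was further from 0 with the offset than without it (-0.54).

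Of the inducible genes, in the same comparison and under this offset, Psmb10 was at -1.09 (adjusted p = 0.0120) and Psme1 at -0.80 (adjusted p = 0.0119), and both passed the edgeR test, whereas Psme2, at -0.25, did not (adjusted p = 0.128). Between vehicle-treated and naïve mice, Psmb10 was at 0.98 (adjusted p = 0.0206) and Psme1 at 0.69 (adjusted p = 0.0208) in the same fit. Among the constitutive genes in that comparison, 2 of 41 (4.88%) were called lower, where 5.80% of all genes tested were, namely Psmc6 (-0.30, adjusted p = 0.0463) and Psmg2 (-0.54, adjusted p = 0.0212).

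**Figure D5:**
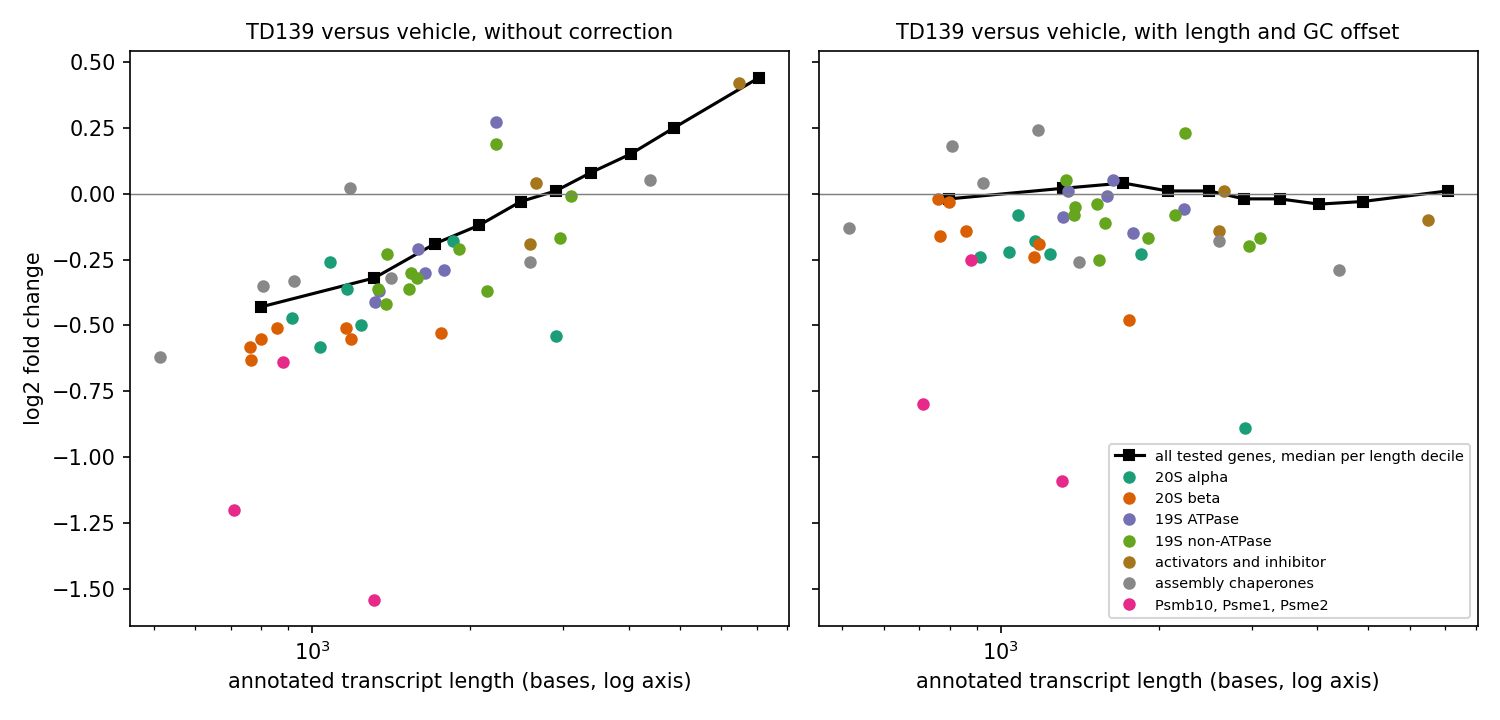
Log2 fold change between TD139-treated and vehicle-treated mice against annotated transcript length (bases, log axis) for the 44 genes, coloured by class, with the median of all tested genes in each length decile (black squares), without correction on the left and with a length and GC offset on the right. Without correction most constitutive genes lie near or below the line of all genes, which runs from -0.43 to 0.44, and Psmb10, Psme1, Psma2 and Psmb1 lie below it in both panels.

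The comparison of TD139-treated with naïve mice shares its groups with the comparisons above. Of 41 constitutive genes 8 fell (19.5%), where 2.38% of all genes tested fell, and 0 rose, where 2.72% rose. The 8 were the alpha subunits Psma2 and Psma7, the beta subunits Psmb3, Psmb4, Psmb6 and Psmb7, the ATPase Psmc4 and the ubiquitin receptor Psmd4, with log2 fold changes from -0.57 for Psmb6 to -0.36 for Psmc4 and edgeR adjusted p of 0.0406 to 0.0492. Psmb4, a structural beta subunit, had 198, 168 and 152 CPM in naïve and 136, 118 and 121 CPM in TD139-treated mice (-0.47 ± 0.11, adjusted p = 0.0458), which did not overlap. The naïve mice had 109, 93.6 and 90.1 CPM of Psma2 and 158, 129 and 115 CPM of Psma7. They had 61.1, 49.2 and 46.8 CPM of Psmb3, 181, 164 and 157 CPM of Psmc4 and 178, 161 and 169 CPM of Psmd4. Set beside the TD139 values given above, none of these genes overlapped between the groups. The median of the 41 was -0.32, against -0.00 over all genes. In 28 of 41 genes (68.3%) every TD139-treated mouse lay below every naïve mouse, against 16.8% of all genes tested. In Psme4 every one lay above (15.3% of all genes). Summed markers of bipolar cells (1080 to 1210 CPM in naïve and 1380 to 1390 CPM in TD139-treated mice), amacrine cells (623 to 707 and 744 to 814 CPM) and endothelial cells (25.1 to 32.4 and 21.5 to 23.9 CPM) did not overlap between these groups either. Of all markers tested, only Aqp4, of Müller glia, was called (0.70, adjusted p = 0.0420), and the part of these cell types in the fall was not tested.

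These 8 calls were close to the threshold. None was left in the fits that dropped naïve mouse 1 or 2, vehicle-treated mouse 2, or TD139-treated mouse 2 or 3. Psmb6 and Psmd4 were called without vehicle-treated mouse 1, where 3 constitutive genes were called in all, and they were the 2 called without mouse 3 of that group, whereas 23 genes were called once naïve mouse 3 was dropped. The shares of all genes called in these fits are not given, so these counts cannot be set against them. With the length and GC offset no constitutive gene and no gene of the 15196 tested was called in either direction by edgeR. In that fit 13 of the 41 had an unadjusted p under 0.05, against 16.9% of all genes tested, and the median of the 41 was -0.13. DESeq2 and limma, without the offset, called 21 and 28 of the 41 lower, and 9.07% and 16.2% of all genes. Against naïve mice no inducible gene passed the edgeR test, with -0.46 for Psmb10 (adjusted p = 0.243), -0.46 for Psme1 (adjusted p = 0.169) and -0.42 for Psme2 (adjusted p = 0.112), and naïve and TD139-treated mice overlapped in each. Limma called all 3 lower (-0.73, -0.63 and -0.55, with adjusted p of 0.0162, 0.00564 and 0.00535), and edgeR called Psme2 when naïve mouse 3 was dropped (0.0291) and Psme1 when TD139-treated mouse 1 was dropped (0.0346). With the length and GC offset they were at -0.11 for Psmb10 (adjusted p = 0.847), -0.11 for Psme1 (adjusted p = 0.780) and -0.09 for Psme2 (adjusted p = 0.737).

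Outside the subunits, 28 genes for proteasome assembly, regulation and ubiquitin supply were tested. Between vehicle-treated and naïve mice 0 rose and 0 fell, and 3 had an unadjusted p under 0.05, against 27.6% of all genes tested. DESeq2 called 1 of them lower, and limma called 1 higher and 2 lower, where these tools called 7.04% and 10.2% of all genes lower. Between TD139-treated and vehicle-treated mice 6 rose and 7 fell, where 17.2% of all genes tested rose and 16.2% fell. Among those that fell were Pomp, the core maturation chaperone (-0.60), the cap subunits Adrm1 (-0.48) and Shfm1 (-0.50), Rps27a, which encodes ubiquitin fused to a ribosomal protein (-0.66), and Nfe2l2, a regulator of oxidative stress genes (-0.33). The ubiquitin-activating enzyme Uba6 (1.24), the protease Ddi2 (1.06), which processes NFE2L1, the ligase Ube3c (0.47), the proteasome adaptor AI314180 (0.37) and the shuttle factors Ubqln2 (0.35) and Ubqln4 (0.33) were those that rose.

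Among these, Adrm1, a ubiquitin receptor, had 55.9, 60.5 and 64.2 CPM after vehicle and 45.4, 38.2 and 45.5 CPM after TD139, with no overlap (-0.48 ± 0.10, adjusted p = 0.00716). Nfe2l1, the transcription factor that drives subunit genes when proteasomes are inhibited, had 300, 295 and 271 CPM after vehicle and 286, 287 and 288 CPM after TD139 (-0.01 ± 0.09, adjusted p = 0.951). These groups overlapped for Nfe2l1, and it passed the test in no comparison. Its naïve mice, at 245, 266 and 267 CPM, lay below all mice of both other groups. Of all genes tested, 16.7% were separated upward from naïve in vehicle-treated mice and 15.3% in TD139-treated mice. With the length and GC offset Adrm1 was at -0.04 (adjusted p = 0.756), Pomp at -0.40 (adjusted p = 0.0263), Uba6 at 0.65 (adjusted p = 0.0388) and Ddi2 at 0.71 (adjusted p = 0.0254). Ubqln4 kept its call (0.38, adjusted p = 0.0154), Ube3c (0.14, adjusted p = 0.276) and Ubqln2 (0.24, adjusted p = 0.110) did not, and AI314180 turned sign (-0.05, adjusted p = 0.639). Against naïve mice, Usp14, a deubiquitinase of the cap, rose in TD139-treated mice (0.49 ± 0.10, adjusted p = 0.0406), and Adrm1 fell (-0.46 ± 0.10, adjusted p = 0.0420). Each of these calls was kept in 4 of the 9 fits that left out 1 mouse. Neither was called with the length and GC offset, at 0.15 for Usp14 (adjusted p = 0.339) and -0.13 for Adrm1 (adjusted p = 0.493).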

How the data were processed

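Whole-retina RNA of 9 mice was made into stranded poly(A) libraries and sequenced on 2 flow cells. For each run the authors deposited unscaled whole-number counts per gene, made with BaseSpace RNA Express on build mm10 per the submitters' processing notes. The annotation, the aligner version and the strand setting of the counting are not given in the sources used here. Exons of Psmb7, Psma4, Psma5, Psmc3, Psmd3, Psmd13 and Psme1 overlap a gene on the other strand, and those of Psmd1, Psmg3 and Psmb5 a gene on the same strand. Pseudogenes of Psma5, Psmb5, Psmb6 and Psmb7, and Psme2b, none of which was analysed here, share sequence with members. These values are therefore less certain.

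Counts of both runs were summed per mouse, the replicate. Labels name the mice separately. Runs of a mouse differed by a chi-square per degree of freedom of 1.63 to 1.80 and mice of a group by 16.7 to 73.1. The fit used edgeR 4.0.16 in R 4.3.3 (filterByExpr, TMM, robust quasi-likelihood F test) with all 9 mice, and Benjamini-Hochberg adjustment over 15196 genes at 0.05. RPKM divided TMM-scaled CPM by the median length of GENCODE M21 basic transcripts in kilobases. The offset was a spline with 4 degrees of freedom on log2 length and GC content per mouse. Alternatives were DESeq2 1.42.0, limma 3.58.1 (voom with quality weights), other scalings and filters, single flow cells, a replicate block and leaving out each mouse. The fits were also run on simulated counts with 200 changed genes and the same spread for every gene. That is simpler than these data, so it cannot show how the fits behave on them.

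The members and lists were chosen with earlier results of these data known. Values in each mouse are given for Psmb10, Psme1, Psme2, Psmb7 and Psme3 and, in each class, for the member with the most reads and up to 3 called members with the lowest p per comparison. For some of these genes the text gives only the mice of the groups compared, not of all 3 groups. Psmg2, Psmc6, Psmg1, Psmg3, Psmd5, Psma1, Psma3, Psmd1, Psmf1, Psmd9, Psmb1 and Psmb5, and pathway genes beyond the 4 with the lowest adjusted p per comparison, were named after their values were seen. Paaf1 was not analysed here, and some other genes of that list and a searched motif are not reported here. Sequences are from RefSeq on GRCm38.p6.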

Additional observations from a re-analysis of the deposited data

How the results depend on the processing

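Of 21 alternatives, the constitutive genes called lower between TD139-treated and vehicle-treated mice (22) were 5 with the length and GC offset and 3 with the replicate block and that offset, with none called higher in either and a median of -0.13 in both. Psme2 was then at -0.25 in both (adjusted p = 0.128 and 0.159), AI314180 at -0.05, Psmc3 at 0.05, Psmc4 at 0.01, Psmd4 at 0.05 and Psme4 at -0.10. Of the 23 constitutive calls, 8 were kept in all 9 fits leaving out a mouse and 3 in every fit. Between vehicle-treated and naïve mice, Psme1 was called with DESeq2 (0.75), limma (0.68), the 2 groups alone (0.76), the offset (0.69), block and offset (0.70) and flow cell 2 alone (0.82), and constitutive genes called lower were 1 (DESeq2), 1 (limma), 2 (offset) and 1 (block and offset). Library size alone moved the constitutive median to 0.12 and that of all genes to 0.09, and left 1 constitutive gene lower against naïve mice under TD139.

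Between TD139-treated and naïve mice, constitutive genes called lower were 21 (DESeq2), 28 (limma), and 0 with the 2 groups alone, the block, the offset, or both. Called higher was 1 with DESeq2, limma or flow cell 2 alone. The median was -0.13 with the offset, with or without the block. In limma Psmb10 (-0.73), Psme1 (-0.63) and Psme2 (-0.55) were called. For the 28 other ubiquitin-proteasome genes, those called higher and lower against naïve mice under TD139 were 1 and 2 in the main fit. There, 2.72% of all genes rose and 2.38% fell. The counts were 5 and 6 (DESeq2), 8 and 8 (limma), 2 and 1 (flow cell 1), and 0 and 0 (2 groups alone, block, offset, or both), with 4 lower on flow cell 2. DESeq2 and limma called 9.07% and 16.2% of all genes lower in this comparison. Between vehicle-treated and naïve mice the counts for the 28 genes were 1 lower (DESeq2), 1 higher and 2 lower (limma), 1 and 1 (offset, with or without block) and 1 lower (flow cell 1). In that comparison DESeq2 and limma called 7.04% and 10.2% of all genes lower. For TD139 against vehicle the counts were 3 and 4 (block and offset).

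Replicate numbers are shared only as numbers. Deviations of same-numbered mice correlated between -0.26 and 0.28, and 1 mouse of 3, 0 of 3 and 0 of 3 correlated best with its own number. With the replicate block alone Psmb10 between vehicle-treated and naïve mice was 1.10 (adjusted p = 0.054).

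Leaving out 1 mouse at a time gave ranges of 0.83 to 1.24 for Psmb10, 0.60 to 0.89 for Psme1 and 0.08 to 0.35 for Psme2 between vehicle-treated and naïve mice, and 0 to 1 other ubiquitin-proteasome genes lower. Between TD139-treated and vehicle-treated mice the ranges were -0.76 to -0.54 for Psme2 (no call without vehicle-treated mouse 3 or TD139-treated mouse 2 or 3), 8 to 24 constitutive genes lower and 0 to 2 higher, and 2 to 9 other genes higher and 3 to 8 lower. Between TD139-treated and naïve mice they were 0 to 23 constitutive genes lower and 0 to 1 higher, a median of -0.39 to -0.22, -0.72 to -0.27 for Psmb10, -0.70 to -0.32 for Psme1, -0.56 to -0.29 for Psme2, and 0 to 5 other genes higher and 0 to 5 lower. The causes of these changes were not tested. Psma8 and Psmb11 had too few reads for any comparison.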
